A study of Mus musculus with 25 samples.

Results

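Antibody variable (V) segments were described in RNA of the mouse duodenum, the first stretch of the small intestine. A row of the deposited count table was taken where its symbol starts with Ighv, Igkv or Iglv, each Ensembl identifier counted 1 time. That gave 107 segments of 17007 gene identifiers: 35 of the heavy chain (Ighv), 69 of the kappa light chain (Igkv) and 3 of the lambda light chain (Iglv). All 107 are annotated as V genes, not as V pseudogenes, in GENCODE M21 (GRCm38). The same annotation lists 216 V genes of this class and 130 V pseudogenes, and the table held 48 further V rows (46 heavy, 2 kappa) with no deposited symbol, which the rule leaves out. Sums, shares of V reads and rankings below cover the 107 named segments only, unless these rows are stated to be included. The table keeps genes with more than 20 counts in at least 5 libraries, so rarer segments were not analysed here.

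Polyadenylated RNA was sequenced in 25 libraries from male mice that were 8 weeks old at the start and then fed for 8 weeks. WT_Con (n = 4) were C57BL/6N mice on control diet, and KI_Con (n = 4) were Aldh2KI mice on the same diet. Aldh2 encodes the mitochondrial enzyme that clears acetaldehyde, the first product of ethanol. WT_Half (n = 7, C57BL/6N) and KI_Half (n = 6, Aldh2KI) were given a diet of 2.5% ethanol together with 2 weekly gavages of 2 g/kg ethanol. WT_Full (n = 4, C57BL/6N) were given 5% ethanol and 2 weekly gavages of 4 g/kg. Tissue was taken 9 h after a final gavage, stated as 5 g/kg. Whether control mice were gavaged, and whether WT_Half and KI_Half also ended on 5 g/kg, could not be read from the labels, so gavage and time of day cannot be told apart from ethanol. There was no Aldh2KI group at the full dose. The labels number the libraries within a group but do not state that each is a separate animal, so the p-values below measure the spread between these libraries.

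Library totals ran from 24.6 to 44.8 M counts, with a median of 32.02 M. Pancreatic and gland content differed between libraries. The summed level of 6 acinar genes reached 1827 CPM (counts per M counts, scaled by edgeR's TMM factors, which correct for a few genes taking many reads) in WT_Con and 3672 in KI_Con, and at most 36.4, 9.34 and 5.73 in WT_Half, KI_Half and WT_Full. The 3 Brunner gland genes, Muc6, Tff2 and Gkn3, summed to between 15.3 and 53680 CPM over all libraries. Enterocyte genes were present in every group (lowest sum 16620 CPM), while the B cell genes Ms4a1 and Pax5 were not among the rows analysed here.

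An antibody V region is built when a developing B cell joins 1 V segment to a joining segment, with a diversity segment between them in the heavy chain. Each B cell and its plasma cell offspring thus transcribe mainly 1 heavy and 1 light V segment, so the mixture of V transcripts in a tissue mirrors the mixture of clones and how much each secretes. The gut wall is rich in plasma cells that secrete IgA, made of the alpha heavy chain (Igha), a light chain and the joining chain Jchain. Laboratory mice use kappa light chains far more often than lambda, and have few lambda V segments. In bulk RNA, fewer plasma cells and less antibody RNA per cell cannot be told apart.

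Sequences of 9 segments on which the results turn are given below from the GENCODE M21 transcripts (GRCm38): the 3' end of the coding part of the V exon, up to 300 bases, 5' to 3' in the gene's own direction. Capitals mark the codon of the last in-frame cysteine, which opens the third hypervariable loop; in Iglv2 they mark instead the bases that differ from Iglv1. Iglv1 (chr16:19085017-19085316, minus strand) was the most abundant segment, and Iglv2 (chr16:19260401-19260700, minus) is its near copy, with 9 differences over 305 aligned bases (97.0% identity), 8 of them in the stretch shown.
Iglv1: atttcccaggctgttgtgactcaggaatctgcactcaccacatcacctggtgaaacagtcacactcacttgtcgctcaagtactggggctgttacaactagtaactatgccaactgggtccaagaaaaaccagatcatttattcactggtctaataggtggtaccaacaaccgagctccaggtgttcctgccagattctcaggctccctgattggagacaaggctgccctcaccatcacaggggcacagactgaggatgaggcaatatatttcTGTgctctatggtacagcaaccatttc
Iglv2: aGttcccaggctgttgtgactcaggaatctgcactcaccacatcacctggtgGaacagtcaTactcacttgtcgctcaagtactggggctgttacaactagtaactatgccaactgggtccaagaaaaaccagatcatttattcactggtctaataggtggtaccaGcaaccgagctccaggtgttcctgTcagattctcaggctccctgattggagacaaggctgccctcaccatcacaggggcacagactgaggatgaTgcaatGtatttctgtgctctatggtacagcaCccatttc
Igkv6-23 (chr6:70260409-70260706, minus) and Ighv1-55 (chr12:115208095-115208394, minus) had the highest kappa and heavy levels per kilobase.
Igkv6-23: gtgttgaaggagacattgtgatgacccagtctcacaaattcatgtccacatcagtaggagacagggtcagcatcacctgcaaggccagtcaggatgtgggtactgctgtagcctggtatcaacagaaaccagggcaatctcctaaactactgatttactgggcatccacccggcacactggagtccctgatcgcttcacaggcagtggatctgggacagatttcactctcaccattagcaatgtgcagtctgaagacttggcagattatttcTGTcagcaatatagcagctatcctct
Ighv1-55: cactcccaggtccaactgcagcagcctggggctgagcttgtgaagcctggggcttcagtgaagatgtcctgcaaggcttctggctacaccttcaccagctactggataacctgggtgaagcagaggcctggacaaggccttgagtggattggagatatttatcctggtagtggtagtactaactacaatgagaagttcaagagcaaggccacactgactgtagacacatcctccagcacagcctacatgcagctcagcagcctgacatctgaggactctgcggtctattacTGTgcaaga
Igkv14-126 (chr6:67896345-67896642, plus), Igkv12-89 (chr6:68834846-68835143, minus) and Igkv12-46 (chr6:69764523-69764820, minus) had the largest falls in KI_Half vs KI_Con. Igkv12-89 and Igkv12-46 are 85.9% identical, and each is 74.5% or less identical to Igkv14-126.
Igkv14-126: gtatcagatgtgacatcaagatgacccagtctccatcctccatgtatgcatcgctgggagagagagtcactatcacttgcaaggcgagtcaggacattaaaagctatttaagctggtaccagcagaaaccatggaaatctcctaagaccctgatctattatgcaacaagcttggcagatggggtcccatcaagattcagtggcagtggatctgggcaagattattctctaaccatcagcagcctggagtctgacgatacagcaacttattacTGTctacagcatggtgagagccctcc
Igkv12-89: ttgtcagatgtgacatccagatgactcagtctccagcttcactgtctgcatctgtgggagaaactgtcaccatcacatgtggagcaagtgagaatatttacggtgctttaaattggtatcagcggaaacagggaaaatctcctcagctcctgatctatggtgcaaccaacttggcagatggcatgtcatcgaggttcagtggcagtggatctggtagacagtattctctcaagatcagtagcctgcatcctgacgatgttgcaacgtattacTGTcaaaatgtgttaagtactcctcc
Igkv12-46: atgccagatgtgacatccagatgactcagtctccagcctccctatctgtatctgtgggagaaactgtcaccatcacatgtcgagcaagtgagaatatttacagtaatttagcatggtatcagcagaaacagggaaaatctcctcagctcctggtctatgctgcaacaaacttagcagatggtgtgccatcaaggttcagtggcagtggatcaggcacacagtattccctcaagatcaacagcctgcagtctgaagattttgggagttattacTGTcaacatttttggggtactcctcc
Ighv11-2 (chr12:114048241-114048540, minus) is shown because it is the known heavy partner of Igkv14-126 in B-1a cell antibodies against phosphatidylcholine; it was chosen after its values were seen. Ighv1-71 (chr12:115742205-115742504, minus) was the segment called in WT_Half vs WT_Con.
Ighv11-2: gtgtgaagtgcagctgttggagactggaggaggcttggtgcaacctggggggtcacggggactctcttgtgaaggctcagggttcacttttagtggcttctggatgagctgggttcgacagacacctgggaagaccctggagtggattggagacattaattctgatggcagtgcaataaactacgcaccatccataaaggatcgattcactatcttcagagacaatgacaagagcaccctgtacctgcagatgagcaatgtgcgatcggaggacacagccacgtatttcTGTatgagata
Ighv1-71: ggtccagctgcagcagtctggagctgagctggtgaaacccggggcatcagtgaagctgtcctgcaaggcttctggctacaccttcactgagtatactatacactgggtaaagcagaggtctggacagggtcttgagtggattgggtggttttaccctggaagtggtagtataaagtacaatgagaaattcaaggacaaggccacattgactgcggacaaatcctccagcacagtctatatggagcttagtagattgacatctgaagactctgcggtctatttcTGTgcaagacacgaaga

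How well reads tell segments apart limits every value of a single segment. The coding V exons of Ighv1-71 and Ighv1-62-2, both among the 107, were identical over 313 bases. Of the 107 transcripts, 20 shared no stretch of 50 bases with another annotated V transcript, the median segment shared 25.9% of its 50-base stretches, and 17 shared more than 50%. For 60 segments the nearest other V exon was at least 95% identical. Igkv14-126 and Igkv12-89 shared no 50-base stretch, whereas Igkv4-59 shared 74.3%. The labels do not say how the counting treated reads that match several genes, so values of close copies are uncertain.

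The summed level of the 107 segments varied widely within groups. It was 760.1, 1682, 826 and 1971 CPM in WT_Con replicates 1 to 4 and 1278, 1652, 1320.5 and 2218 CPM in KI_Con. In WT_Half it ran from 272 to 1359.8 CPM (median 577), and in KI_Half from 139 to 1092 CPM (median 562). In WT_Full it was 85.8, 83.1, 942 and 1203 CPM. All 4 KI_Con libraries lay above all 6 KI_Half libraries, whereas every WT ethanol group overlapped WT_Con. Means ± SD were 1309.8 ± 609 CPM in WT_Con, 1617 ± 434 in KI_Con, 750.1 ± 382 in WT_Half, 595 ± 307 in KI_Half and 579 ± 580 in WT_Full. The KI_Con mean was 2.72 times the KI_Half mean, and the WT_Con mean was 1.75 times that of WT_Half and 2.26 times that of WT_Full. These sums are descriptions and were not tested. Heavy and kappa sums were likewise apart without overlap in the KI groups (means of 342 and 131 CPM for Ighv, 1096 and 378 for Igkv, KI_Con first), while the lambda sums overlapped (179 and 85.8).

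In most libraries V reads kept a steady ratio to the IgA heavy chain gene. There were 19.1 to 30.3 V reads for each 100 Igha reads in 22 of 25 libraries. The other 3 were also the 3 with the lowest V sums: 12.9 in KI_Half replicate 2, 10.7 in WT_Full replicate 1 and 9.22 in WT_Full replicate 2. The same 3 had the fewest Igkv reads per Igkc read, at 0.300, 0.230 and 0.207, against 0.354 to 0.594 elsewhere. Their Iglv1 reads per Iglc1 read, 0.776, 0.840 and 0.552, were also lower than in every other library (1.02 or more). V reads were thus low in these 3 libraries even relative to the constant genes of both light chains. What sets these libraries apart was not tested.

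**Figure D1:**
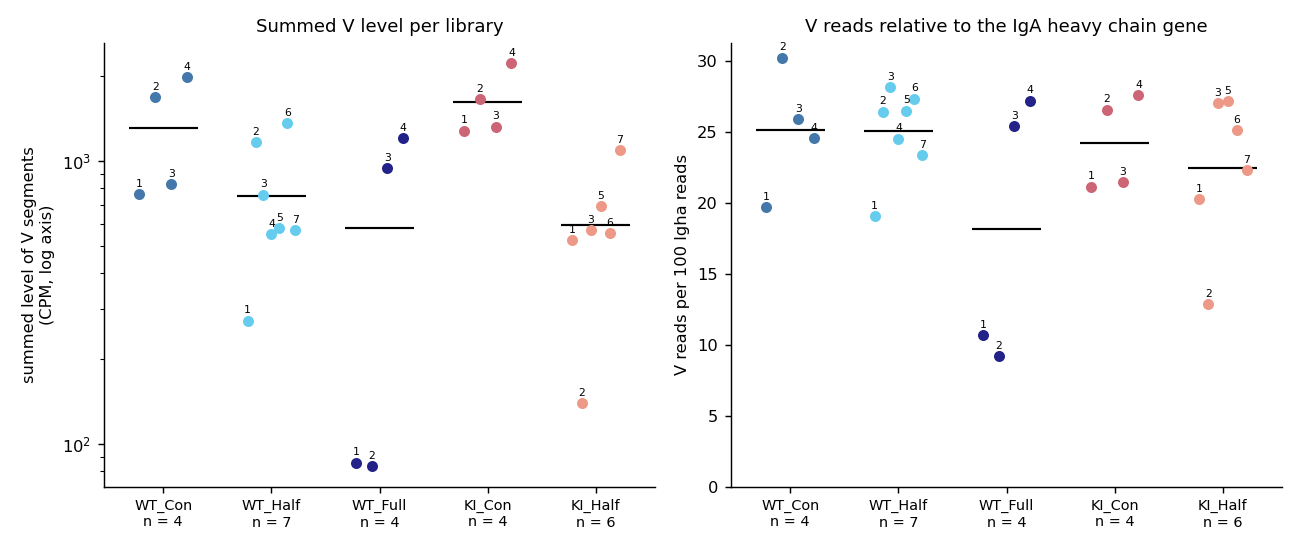
Left, summed level of the 107 V segments in each library (CPM, log axis); right, V reads per 100 reads of the IgA heavy chain gene (linear axis). Points are libraries with their replicate numbers and bars are group means; KI_Con lies wholly above KI_Half, and WT_Full replicates 1 and 2 are lowest in both panels.

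The number of named segments detected hardly differed between groups once depth was equal. V reads per library ran from 2153 to 67077, so each library was thinned to 2153 V reads. At that depth 90.3 to 95.3 of 107 segments were expected with at least 1 read in WT_Con, 92.7 to 97.7 in KI_Con, 92.5 to 100.6 in WT_Half, 93.1 to 98.4 in KI_Half and 93.0 to 98.1 in WT_Full. All groups overlapped. Without thinning, the count with at least 10 reads averaged 98.3 in WT_Con and 75.8 in WT_Full. The 2 libraries with the fewest V reads, WT_Full replicates 1 and 2, still had 93.8 and 93.0 segments at equal depth.

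Evenness was expressed as the effective number of segments, the exponential of the Shannon entropy of the V read shares: it would be 107 if all were used alike. WT_Con libraries had 32.3, 36.6, 38.6 and 29.8 effective segments. KI_Con had 58.4, 44.8, 40.5 and 45.8, and WT_Full 43.9, 46.7, 48.7 and 47.5. WT_Half ran from 36.7 to 61.1 (median 47.4) and KI_Half from 42.1 to 49.9 (median 48.4). WT_Con lay below KI_Con, KI_Half and WT_Full without overlap and overlapped WT_Half through replicate 2 (36.7). With the V rows that have no symbol included, WT_Con reached 61.4 and KI_Con began at 61.1, so those groups then overlapped. With the leading segment of each library left out, WT_Con held 45.6 to 50.7 and KI_Con 47.6 to 59.3, which overlap. Within the kappa locus the effective number was 31.9 to 33.7 in WT_Con and 31.7 to 40.5 in KI_Con, and within the heavy locus 14.5 to 19.5 and 14.1 to 19.4.

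The lower evenness of the WT_Con libraries went with Iglv1. The 3 lambda segments took 25.2%, 24.2%, 18.2% and 27.03% of V reads in WT_Con, against 6.68%, 12.4%, 16.9% and 9.14% in KI_Con. In the ethanol groups the share was 4.83 to 25.3% in WT_Half (median 10.1%), 7.98 to 18.7% in KI_Half and 4.36 to 15.3% in WT_Full. WT_Half replicate 2, at 25.3%, was the only WT_Half library within the WT_Con range. KI_Half overlapped WT_Con through its highest library, while KI_Con and WT_Full did not. The constant genes moved alike: Iglc1 reads were 11.03 to 20.4% of Igkc reads in WT_Con, 2.86 to 8.03% in KI_Con and 19.7% in WT_Half replicate 2. The test of Iglv1 itself did not pass for KI_Con vs WT_Con (log2 difference -0.86 ± 0.43, edgeR adjusted p = 0.519), nor did Iglc1 (-1.03 ± 0.41, 0.502).

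**Figure D2:**
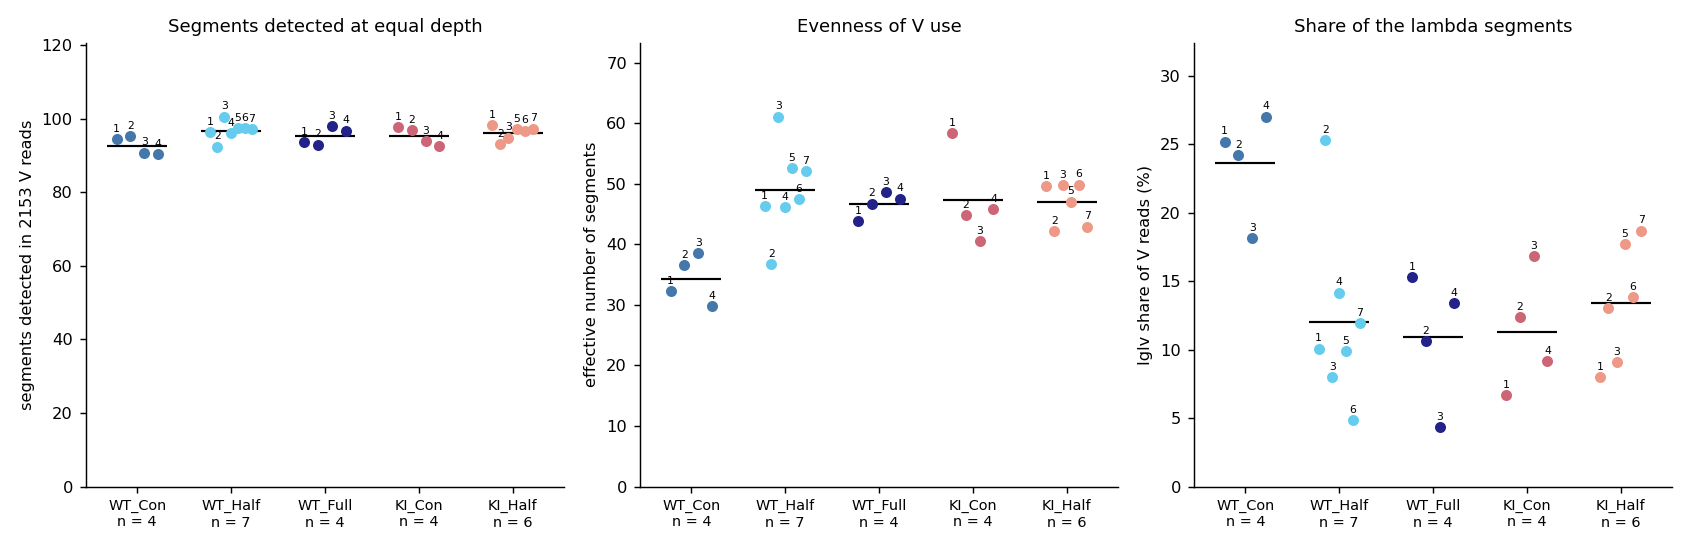
Per library (points with replicate numbers; bars are group means): segments detected after thinning to 2153 V reads, effective number of segments, and the lambda share of V reads in percent, all on linear axes from 0. Detection of the named segments overlaps in all groups, while WT_Con shows the lowest effective numbers and mostly higher lambda shares, with WT_Half replicate 2 among them.

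Levels between segments were compared per kilobase of exon (CPM per kb), as a mean over the 25 libraries. Iglv1 stood first at 329 CPM per kb and led in 22 of 25 libraries, with up to 26.2% of V reads in WT_Con replicate 4 (95% Wilson interval 25.8 to 26.5%, which covers counting error only). The other leaders were Igkv8-30 in WT_Half replicate 3 (8.26%), Igkv6-17 in WT_Half replicate 6 (10.9%) and Igkv6-15 in WT_Full replicate 3 (14.3%). Among kappa segments Igkv6-23 had 124 CPM per kb, Igkv19-93 91.4 and Igkv10-96 80.9. Among the 35 named heavy segments the most abundant were Ighv1-55 at 49.8, Ighv1-53 at 41.4 and Ighv1-76 at 33.2 CPM per kb. The 48 V rows without a symbol, 46 of them heavy, were not ranked. They summed to more than the named heavy segments in every library, for example 371 against 96.1 CPM in WT_Con replicate 1. In KI_Half replicate 1 the sums were 139 and 133 CPM. Iglv2 and Iglv3, at 13.4 and 5.60, were far below Iglv1. By family, the 19 Ighv1 members held a median of 10.7% of V reads, the 8 Igkv6 members 12.1% and the 18 Igkv4 members 10.2%. The order of the upper segments is loose, since each varied many-fold between libraries of 1 group: Igkv19-93 had 18.3, 92.7, 34.9 and 5.79 CPM in WT_Con.

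Single segments surged in single libraries. A surge was defined, after the values were seen, as at least 1% of V reads and at least 10 times the segment's median share in the other libraries. There were 34 surges in 24 segments and 19 libraries, with at most 4 in a library. Igkv4-53 took 9.44% of V reads in WT_Con replicate 1, Igkv9-124 8.95% in WT_Half replicate 1 and Igkv3-2 7.25% in WT_Half replicate 6. Ighv5-9 took 5.74% in KI_Con replicate 4 and Igkv14-126 4.98% in KI_Con replicate 3. Igkv4-91 took 8.50% in WT_Full replicate 2, from 183 reads. Igkv12-89, Ighv1-77 and Igkv6-14 surged in 3 libraries each. Those of Igkv12-89 were KI_Con replicate 1 and WT_Half replicates 1 and 5, and those of Ighv1-77 were WT_Half replicates 3 and 5 and KI_Half replicate 1. Surges occurred in every group, with and without ethanol.

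**Figure D3:**
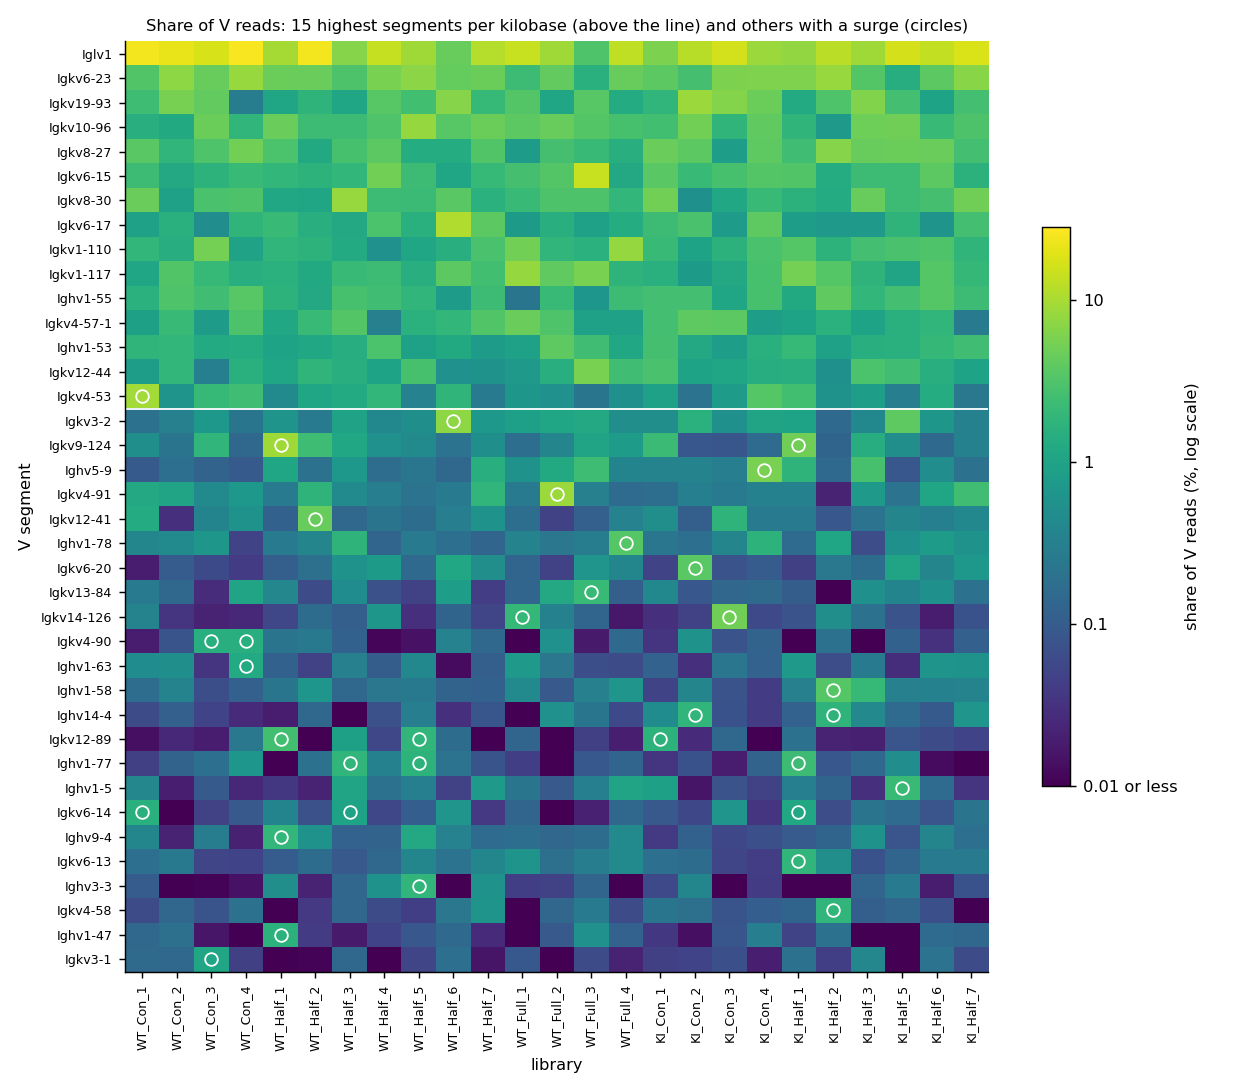
Share of V reads (percent, colour on a log scale) of the 15 segments with the highest level per kilobase, above the white line, and of the other segments with a surge, in each of the 25 libraries. Circles mark the 34 surges; Iglv1 in the top row is high throughout, and circles fall in libraries of every group.

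The spread between libraries of 1 group was accordingly wide for V segments. The median SD of log2 CPM (with 0.1 added) over the 107 was 1.30 in WT_Con, 1.05 in KI_Con, 1.32 in WT_Half, 1.40 in KI_Half and 2.06 in WT_Full. Over 3693 other genes of like level it was 0.28 to 0.49. Igha itself had SDs of 0.19 to 1.31, so the median segment varied more than Igha in each group. As a description, 2 libraries of the same group differed in V shares by a median of 37.1% (Bray-Curtis dissimilarity, 54 pairs) and 2 of different groups by 38.6% (246 pairs). The 2 ranges overlapped, at 28.4 to 47.7% and 27.6 to 56.4%.

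KI_Half vs KI_Con asked what the lower ethanol regimen did in Aldh2KI mice. Of 106 segments tested, 33 fell and 0 rose with edgeR's quasi-likelihood test at a Benjamini-Hochberg adjusted p under 0.05, or 31.1%, where 17.9% of all 16944 genes tested were called lower and 20.0% higher. Falls were spread over the loci: 9 of 35 heavy, 22 of 68 kappa and 2 of 3 lambda segments. The median log2 change was -1.27 over V segments and 0.00 over all genes, and 92 of 106 were negative. At an unadjusted p under 0.05 there were 44 V segments, or 41.5%, against 47.1% of all genes in both directions together. The medians by locus, -1.13 for Ighv and -1.27 for Igkv, lay near the changes of the constant genes they are spliced to, Igha (-1.35 ± 0.31, adjusted p = 0.00666) and Igkc (-1.43 ± 0.31, 0.00474). Of the 47 tested V rows without a symbol, 14 also fell.

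The most regular fall was that of Igkv4-59, the segment with the smallest p. It had 43.2, 18.9, 34.9 and 27.9 CPM in KI_Con and 4.33 to 11.4 CPM (median 6.84) in KI_Half, without overlap, a log2 change of -2.08 ± 0.31 (edgeR adjusted p = 0.000822). Igkv12-46 had 7.0, 79.3, 17.4 and 9.00 CPM in KI_Con and 0.457 to 4.37 CPM in KI_Half, again without overlap (-3.55 ± 0.71, adjusted p = 0.0033). Without KI_Con replicate 2 its change was -2.22 (edgeR adjusted p = 0.0131). Igkv19-93, the third most abundant segment, had 23.9, 141, 86.5 and 104 CPM against 4.45 to 35.5 CPM, with an overlap through KI_Con replicate 1 (-2.40 ± 0.62, adjusted p = 0.0113). Among heavy segments Ighv1-55 had 33.3, 43.3, 14.3 and 61.7 CPM against 5.58 to 24.997 CPM, overlapping through KI_Con replicate 3 (-1.41 ± 0.45, adjusted p = 0.0292). Ighv1-12 had 6.15, 10.4, 4.08 and 3.28 CPM against 0.0849 to 1.94 CPM, with no overlap (-3.19 ± 0.64, adjusted p = 0.00334). Other abundant segments lay on either side of the threshold: Ighv1-76 (-2.39, adjusted p = 0.0397), Igkv6-17 (-2.26, 0.0389) and Igkv6-15 (-1.73, 0.0122) fell. Igkv6-23 (-1.42 ± 0.54, 0.0563), Igkv10-96 (-1.53, 0.0992), Ighv1-53 (-1.10, 0.147) and Igkv8-30 (-0.75, 0.452) did not pass. The call of Igkv6-17 was lost when any 1 of KI_Con replicates 1, 2 and 4 or KI_Half replicates 1, 2, 3, 5 and 6 was left out (edgeR adjusted p 0.0517 to 0.141). That of Ighv1-76 was lost without any 1 of KI_Con replicates 2, 3 and 4 or KI_Half replicates 1, 5 and 6 (0.0522 to 0.111), and that of Ighv1-55 without any 1 of KI_Con replicates 2 and 4 or KI_Half replicates 1 and 3 (0.0535 to 0.109). Without KI_Half replicate 7, Igkv6-23 passed at -2.02 (edgeR adjusted p = 0.00194) and Igkv6-17 was at -3.10 (0.00335). Of the lambda segments Iglv2 (-2.04 ± 0.64, adjusted p = 0.0267) and Iglv3 (-1.96 ± 0.47, 0.00792) fell, while Iglv1 did not pass (-0.999 ± 0.55, 0.171). The call of Iglv2 was lost without any 1 of KI_Con replicates 1 and 4 or KI_Half replicate 1 (0.0539 to 0.0844). Iglv1 ran from 74.8 to 215 CPM in KI_Con and from 17.4 to 199 CPM in KI_Half, where replicate 7 was highest, and it passed without that library (-1.47, edgeR adjusted p = 0.0243).

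Both of the largest fitted falls rested on 1 control library. Igkv14-126 had 0.385, 0.788, 65.8 and 1.26 CPM in KI_Con and 0.104 to 1.13 CPM in KI_Half. Its log2 change of -4.79 ± 1.27 (edgeR adjusted p = 0.0126) became -0.38 (0.650) without KI_Con replicate 3. Igkv12-89 had 21.8, 0.427, 1.90 and 0.197 CPM in KI_Con and 0.0305 to 1.01 CPM in KI_Half, and its change of -3.80 ± 1.14 (adjusted p = 0.0213) became -0.98 (0.406) without KI_Con replicate 1. Ighv11-2, the B-1a partner of Igkv14-126, had 1.04, 1.28, 4.46 and 1.38 CPM in KI_Con, highest in the same replicate 3, and 0 to 0.590 CPM in KI_Half, with no overlap (-2.63 ± 0.66, adjusted p = 0.00987). Without KI_Con replicate 3 it was -1.88 (edgeR adjusted p = 0.0495). The IgM heavy chain Ighm was also highest in KI_Con replicate 3, at 48.8 CPM against 9.16 to 17.5 CPM in the other KI_Con libraries. Of all libraries, Ighm was highest in WT_Half replicate 4, at 61.0 CPM, and no segment surged there. Ighv11-2 was higher in WT_Con replicate 2 (9.69 CPM), where Igkv14-126 had 0.574 CPM. The cell source of these values was not tested.

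**Figure D4:**
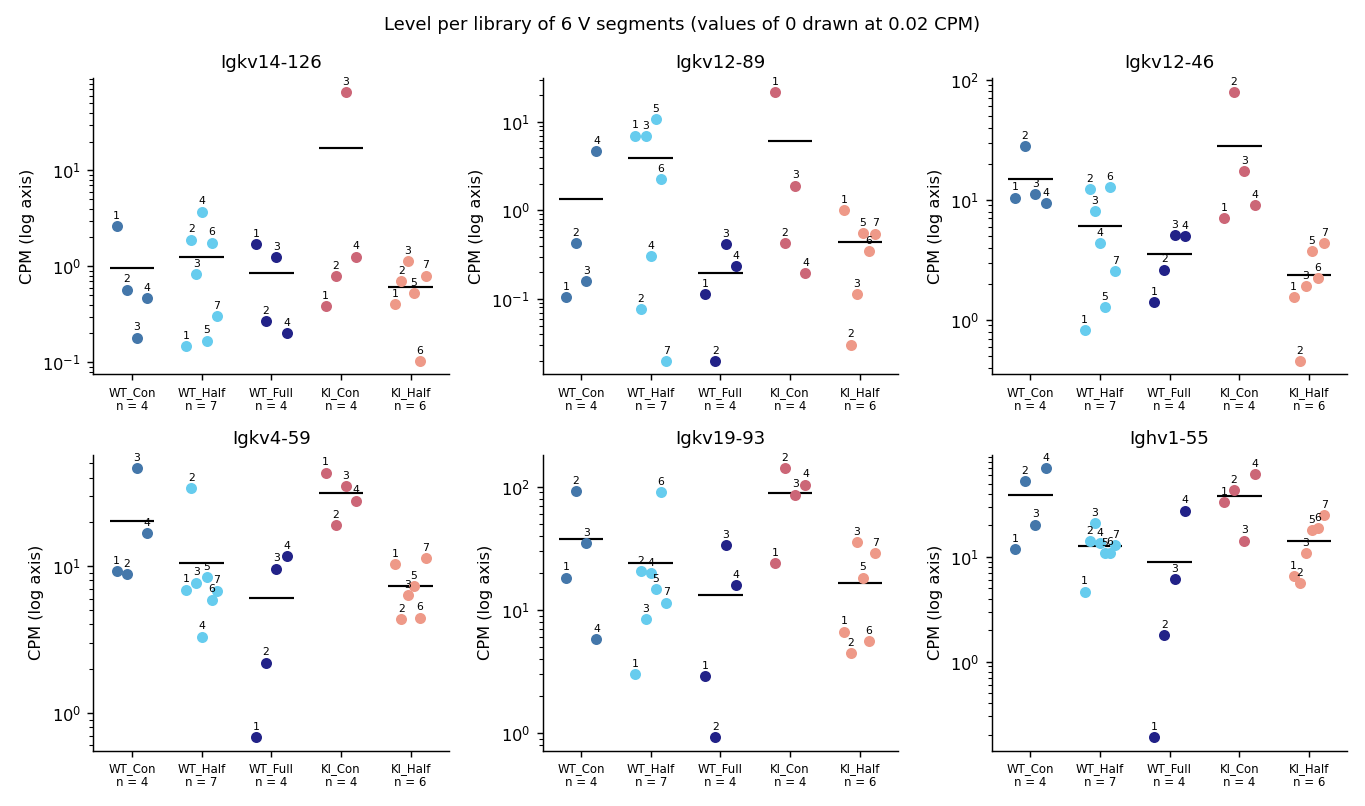
Level per library (CPM, log axis; points with replicate numbers, bars are group means, values of 0 drawn at 0.02 CPM) of 6 segments. Igkv4-59 and Igkv12-46 are lower in every KI_Half library than in any KI_Con library, while the high KI_Con means of Igkv14-126 and Igkv12-89 come from replicates 3 and 1.

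Of the 33 segments, 15 stayed called lower when each KI_Con or KI_Half library was left out in turn, Igkv4-59, Igkv12-46, Igkv19-93, Igkv4-57-1 and Iglv3 among them. The count ran from 22 to 47 over those fits. It was 22 without KI_Con replicate 4, 22 without KI_Half replicate 1 and 47 without KI_Half replicate 7. One fit of all 25 libraries called 19. The shares of all genes called in these fits are not set beside these counts. The counts thus show how the V calls depend on the libraries, not how V segments compare with other genes.

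Other genes of antibody-secreting cells moved in KI_Half vs KI_Con as well. The lists of cell markers below were chosen with earlier results of these data known. Jchain fell by 1.57 on the log2 scale (SE 0.34, edgeR adjusted p = 0.00453), Ighm by 1.64 (adjusted p = 0.0157) and Iglc2 by 1.89 (0.00896). Iglc1 (-0.83, 0.184), Ighg1 (-1.14, 0.154), Ighg2b (-0.81, 0.0544) and Ighg3 (-1.40, 0.0875) did not pass. Of 15 plasma cell genes 8 fell, among them Ccr10, a homing receptor of IgA plasma cells (-2.03 ± 0.30, adjusted p = 0.000772), and Mzb1, a chaperone for immunoglobulin assembly (-1.91 ± 0.38, 0.0033). Fkbp11 (1.40 ± 0.22), Sdc1 (1.17 ± 0.20) and 1 other rose. The summed level of the 15 genes overlapped, at 1242 to 1686 CPM in KI_Con and 701 to 1352 CPM in KI_Half. Which cells the changes in this list come from was not tested. Of the 9 B cell genes measured, 6 fell, Cd79a of the B cell receptor with -1.47 ± 0.31 (adjusted p = 0.004). Pigr, which carries IgA across the epithelium, fell by 0.70 (adjusted p = 0.0189), and Ccl28, a ligand of Ccr10, rose by 1.10 (0.000804).

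Genes of other cell types moved in the same comparison. Of 12 T cell genes 11 fell, with a median log2 change of -1.78 and sums of 200.0 to 265 CPM in KI_Con and 29.6 to 140.3 CPM in KI_Half. All 6 acinar genes fell, their sum being 6.08 to 3672 CPM in KI_Con and 4.60 to 9.34 CPM in KI_Half. Of 8 enterocyte genes 4 fell, with sums of 30610 to 44170 CPM in KI_Con and 16620 to 33140 CPM in KI_Half. None of 3 Brunner gland genes and none of 6 smooth muscle genes passed. With Brunner gland content as a covariate 30 V segments were lower, beside 16.4% of all genes. Without KI_Con replicates 1 and 2, in which Ctrb1 (an acinar enzyme precursor) was above 10 CPM, 12 were lower, beside 6.54% of all genes, and the V median was -1.28. The part of these other cell types in the V values was otherwise not tested.

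WT_Half vs WT_Con asked the same of wild-type mice. Of 107 segments tested 1 fell, Ighv1-71, and 0 rose, against 0.571% and 0.894% of all genes called lower and higher. DESeq2, limma-voom and the fit of all libraries called more V segments, so this count depends on the method. Their counts are given with the dependence on processing below. Ighv1-71 had 1.39, 0.906, 1.79 and 12.2 CPM in WT_Con and 0.121 to 0.797 CPM (median 0.304) in WT_Half, without overlap (-3.34 ± 0.71, edgeR adjusted p = 0.042). Without WT_Con replicate 4 the change was -1.77 (adjusted p = 0.154), and the call was lost in 8 of the 11 fits that left out 1 library. Ighv1-62-2, whose V exon has the same sequence, had a change of -1.20 ± 1.04 (0.522). Over all V segments the median was -0.36, 63 of 107 were negative, and 25 had an unadjusted p under 0.05 (23.4%, against 21.8% of all genes). Without WT_Con replicate 2 the V median was 0.09, so its sign rests on that library. Iglv1 had a change of -1.77 ± 0.56 (adjusted p = 0.109) and Ighv1-55 of -1.62 ± 0.43 (0.0721), neither past the threshold. Igha (-0.82 ± 0.34, 0.185) and Igkc (-0.53 ± 0.34, 0.373) did not pass either. Here the Ighv median, -0.055, lay away from Igha, while the Igkv median, -0.53, lay near Igkc. All 12 T cell genes were negative (median -1.18, 6 with an unadjusted p under 0.05), and 5 of 6 acinar genes fell. Their part in the V values was not tested.

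WT_Full vs WT_Con, the stronger regimen, gave 0 calls among 100 V segments tested with edgeR, where 0.00592% of all genes were called. At an unadjusted p under 0.05 there were 16, all negative (16.0%, against 17.8% of all genes), and DESeq2 called 7 lower, beside 2.55% of all genes lower and 2.98% higher. The median log2 change was -0.80, with 71 of 100 negative, and that for all genes was 0.00. Kappa segments had a median of -0.92 and heavy segments of -0.38. The constant genes Igkc (-0.86 ± 0.55, edgeR adjusted p = 0.428) and Igha (-1.06 ± 0.59, 0.368) did not pass. Markers of other cells were lower in the same comparison without passing the adjusted threshold. All 12 T cell genes were negative with an unadjusted p under 0.05 (median -2.88, sums of 100.1 to 247 CPM in WT_Con and 15.4 to 48.6 CPM in WT_Full), as were all 6 acinar genes (median -7.57). Their part in the V values was not tested. The smallest p among negative changes belonged to Igkv4-53, with 71.7, 10.1, 17.2 and 48.1 CPM in WT_Con and 0.569, 0.463, 2.10 and 6.43 CPM in WT_Full, which do not overlap (-3.94 ± 0.94, adjusted p = 0.152). Without WT_Full replicate 4 it passed, at -5.08 (edgeR adjusted p = 0.0147). Igkv12-46 had 10.4, 28.2, 11.1 and 9.43 CPM against 1.40, 2.63, 5.06 and 4.99 CPM without overlap (-2.06 ± 0.49, 0.153). Among positive changes Ighv5-9 had 0.730 to 3.05 CPM in WT_Con and 0.4934, 1.04, 22.8 and 4.35 CPM in WT_Full (2.14 ± 1.06, adjusted p = 0.322). Without WT_Full replicate 3 its change was 0.24. WT_Full replicates 1 and 2 were low and replicates 3 and 4 within the control range of summed V level, so the group mean stands for neither. In the authors' deposited table, lower V segments numbered 11 of the 105 with an adjusted p (Igkv14-126 and Igkv6-15 have none) and higher ones 0 at an adjusted p under 0.05, with 5.67% of all genes lower. In the authors' deposited table Iglv1 was among them (log2 change -2.55, adjusted p = 0.0256), as was Igkv4-53 (-3.94, 0.00392).

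WT_Full vs WT_Half compared the regimens. It called 0 of 105 V segments and 0% of all genes with edgeR, while 3 segments had an unadjusted p under 0.05 (2.86%, against 4.60% of all genes) and DESeq2 called 1, beside 0.0883% of all genes lower. The median was -0.59 over V segments, with 69 of 105 negative. Igkv4-72 had 0.797, 1.12, 2.24 and 4.35 CPM in WT_Full and 4.96 to 23.0 CPM in WT_Half, without overlap (-2.26 ± 0.56, edgeR adjusted p = 1.00).

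KI_Con vs WT_Con asked what the knock-in did on control diet. It called 0 of 104 V segments and 0% of all genes with edgeR; 22 segments had an unadjusted p under 0.05 (21.2%, against 9.90% of all genes) and DESeq2 called 1 higher, beside 0.0296% of all genes. The V median was 0.59 (all genes -0.02), with 67 of 104 positive. Ighv1-12 had 6.15, 10.4, 4.08 and 3.28 CPM in KI_Con and 0.209, 1.39, 1.99 and 0.265 CPM in WT_Con, without overlap (2.60 ± 0.69, adjusted p = 0.502). Igkv5-43 had 12.3 to 44.9 CPM against 7.79 to 14.7 CPM and overlapped (1.40 ± 0.35, 0.502). Igkv4-91, known from B-1a antibodies, had 2.23 to 7.39 CPM against 3.71 to 17.4 CPM and overlapped (-1.29 ± 0.48, 0.502).

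KI_Half vs WT_Half compared the genotypes under ethanol. It called 0 of 104 V segments and 0% of all genes with edgeR; 10 segments had an unadjusted p under 0.05 (9.62%, against 14.2% of all genes) and limma-voom called 1 lower, beside 2.99% of all genes. The V median was -0.36. The smallest p belonged to Ighv1-12, at 0.0849 to 1.94 CPM in KI_Half and 0.507 to 12.4 CPM in WT_Half (-2.54 ± 0.80, adjusted p = 0.273). Without WT_Half replicate 6 it was -1.83, and without KI_Half replicate 6 it was -3.25. In the authors' deposited table, calls here numbered 0 of the 105 V segments with an adjusted p, with 1.24% of all genes called.

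The difference between the genotypes in the change under ethanol was tested as an interaction over WT_Con, WT_Half, KI_Con and KI_Half. It called 0 of 107 V segments and 0% of all genes with edgeR, although 18 had an unadjusted p under 0.05 (16.8%, against 12.7% of all genes). DESeq2 called 1 lower, beside 0.0353% of all genes, and limma-voom 2 lower, beside 4.25%. The V median was -0.85, with 82 of 107 negative. Ighv1-12 had the smallest p, with an interaction of -5.14 ± 1.22 on the log2 scale (edgeR adjusted p = 0.327). The 33 falls in Aldh2KI mice and the 1 in wild-type mice are therefore not shown to differ. The comparisons share libraries: each control group and each WT_Half or KI_Half group enters several, so their values are not independent of each other.

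**Figure D5:**
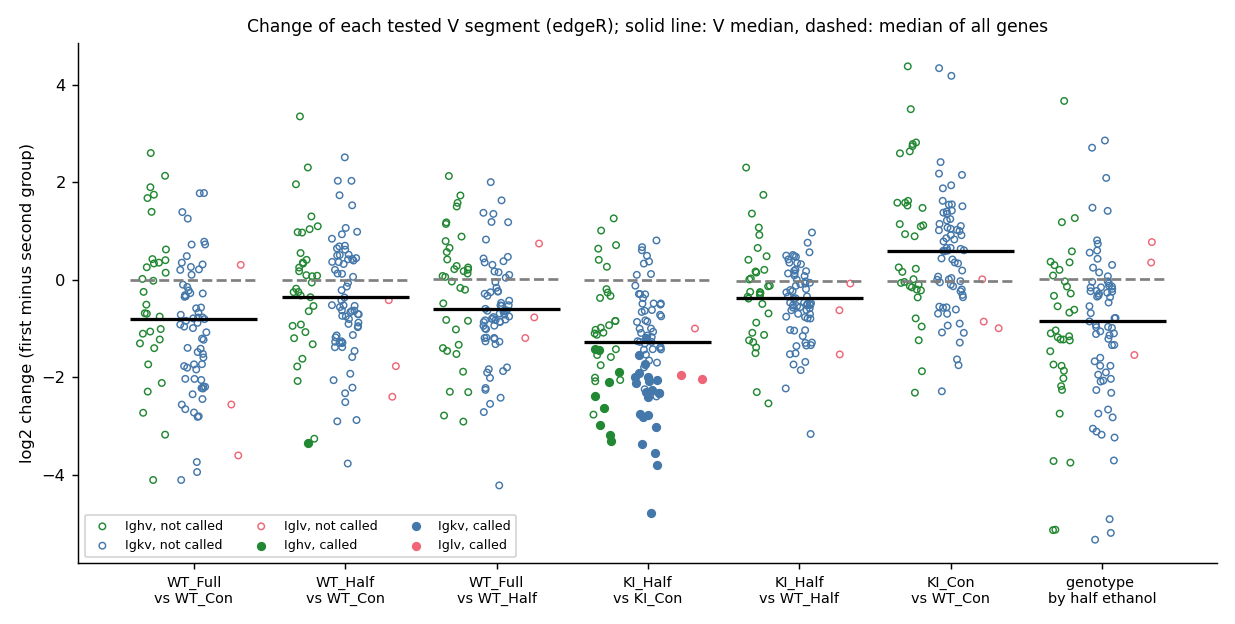
Log2 change of each tested V segment (points; edgeR, first minus second group; filled where called, open where not) in 6 comparisons and the interaction, by locus. Solid lines are V medians and dashed lines the medians of all genes tested; KI_Half vs KI_Con has the lowest V median (-1.27) and 33 of the 34 filled points.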

How the data were processed

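Gene counts of 25 duodenum libraries were taken as the authors deposited them. Per the submitters' processing notes the tools were FastQC, Trimmomatic, HISAT2, SAMtools, featureCounts and DESeq2, with build GRCm38; the versions, the annotation release, the strand setting and any rule for multi-mapped reads were not found there. The authors' deposited log2 fold changes and adjusted p-values, per the file headers, cover KI_Half vs WT_Half and WT_Full vs WT_Con and are quoted by that name. Repeated lines of an identifier were counted 1 time (17220 lines, 17007 identifiers). Groups come from the sample titles.

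From the counts, CPM with TMM factors, V read shares, thinned numbers of segments and effective numbers were computed per library; these have no test. Each comparison was fitted with edgeR 4.0.16 in R 4.3.3 (quasi-likelihood test, low-count filter, only the groups compared, no covariate), with Benjamini-Hochberg adjustment over all genes tested and a threshold of 0.05. Values after ± are standard errors for log2 changes and SDs for levels. Alternatives were DESeq2 1.42.0, limma-voom (limma 3.58.1), a fit of all libraries, other size factors, no filter, the replicate number as a block, and each library left out. The code was tested on simulated data. Sequence and exon lengths come from GENCODE M21.

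The segments and marker lists were chosen with earlier results of these data known. The rule for named segments took the 3 highest per kilobase in each locus, each library's leader, and per comparison the 3 largest changes in each direction past the threshold or, with none, the 2 smallest p in each direction. Igkv4-59, Ighv11-2, Ighv1-62-2, Ighv1-12 in KI_Half vs KI_Con, Iglv1 and Ighv1-55 in WT_Half vs WT_Con, and the surging segments were chosen after their values were seen.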

Additional observations from a re-analysis of the deposited data

Results flagged for a closer look

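In groups of 4 to 7 libraries, 33 of 210 sets of values had a highest or lowest library far from the rest (Dixon's criterion at 95%). Most sets were untransformed CPM of segments chosen from these same values. The criterion's rate of 1 in 20, which is for normally distributed values, therefore does not apply here. In 32 of the 33 it was the highest library, and the CPM values concerned 21 segments. WT_Half replicate 2 stood apart in the share of its leading segment (24.84%), in Iglv1 (289.2 CPM), in Iglc1 reads relative to Igkc (19.68%), in Igkv4-59 (33.94 CPM) and in Ighv1-74 (10.63 CPM). WT_Half replicate 6 stood apart in its kappa share (80.25%), Igkv6-17 (147.9 CPM), Igkv19-93 (90.7 CPM) and Igkv3-1 (2.478 CPM), and WT_Half replicate 3 in Iglv3 (5.645 CPM).

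KI_Half replicate 7 stood apart in Igkv6-23 (75.5 CPM), Igkv4-91 (27.25 CPM), Ighv1-74 (8.769 CPM), Ighv14-4 (6.95 CPM) and Igkv4-68 (5.567 CPM), and KI_Half replicate 6 in Ighv1-62-2 (2.005 CPM). In WT_Full, replicate 4 had the lowest kappa share (62.68%) and the highest Iglv1 (156.6 CPM) and Igkv4-68 (32.03 CPM), and replicate 3 the highest Igkv6-15 (134.7 CPM).

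Among controls, KI_Con replicate 1 was far highest for Igkv12-89 (21.77 CPM), replicate 2 for Igkv12-46 (79.28 CPM) and Ighv9-1 (5.682 CPM), replicate 3 for Igkv14-126 (65.8 CPM) and Ighv11-2 (4.459 CPM), and replicate 4 for Ighv5-9 (127.3 CPM) and Igkv4-53 (76.42 CPM). WT_Con replicate 1 was highest for Igkv14-126 (2.641 CPM), replicate 2 for the heavy share (21.94%), Igkv12-46 (28.23 CPM) and Ighv14-4 (1.932 CPM), and replicate 4 for Ighv1-71 (12.17 CPM) and Igkv12-89 (4.702 CPM).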

How the results depend on the processing

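In KI_Half vs KI_Con the number of V segments called was 33, and between 30 and 47 with DESeq2 (36), limma-voom (47), other size factors (35 with RLE, 34 with TMM factors computed without immunoglobulin genes), no filter (32) or a Brunner gland covariate (30). It fell to 19 in the fit of all libraries and to 12 without the control libraries above 10 CPM of Ctrb1; leaving out 1 library gave 22 to 47, with 1 higher call without KI_Con replicate 2. Of the 33, 6 were called under every one of these alternatives. WT_Full vs WT_Con gave 7 with DESeq2, 2 with limma-voom and 3 in the fit of all libraries, and 0 to 4 with 1 library left out (4 without WT_Full replicate 4); its V median was -1.82 with limma-voom. WT_Half vs WT_Con gave 6 with DESeq2, 7 with limma-voom, 3 in the fit of all libraries, 0 with the Brunner gland covariate and 0 to 2 with 1 library left out. DESeq2 gave 1 in WT_Full vs WT_Half, 1 in KI_Con vs WT_Con and 1 in the interaction; limma-voom gave 1 in KI_Half vs WT_Half and 2 in the interaction. Ighv1-74 in WT_Full vs WT_Con turned to -0.93 with limma-voom, Igkv4-68 in WT_Full vs WT_Half to -0.56 with limma-voom and to between -0.59 and 2.40 with 1 library left out, and Igkv1-88 in the interaction to -0.20 with limma-voom. The cause was not tested. Counts given here without a share of all genes show only how the V calls depend on the fit. The Brunner gland, Ctrb1 and symbol-less V alternatives were added after the data were seen. No segment is annotated as a pseudogene, so leaving those out was not run.

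With the replicate number as a block, 47 segments were called in KI_Half vs KI_Con and 0 in each other comparison, WT_Half vs WT_Con included. The share of all genes called in that fit is not set beside these counts. They show how the V calls depend on the fit, not how V segments compare with other genes. That fit kept only libraries whose number occurs in every group compared. This left 3 numbers in KI_Half vs KI_Con, without KI_Con replicate 4 and KI_Half replicates 5, 6 and 7. It left 3 numbers in the interaction and 4 in WT_Half vs WT_Con. The effect of the block cannot be told apart from that of the libraries left out. Nothing in the labels ties the numbers to a shared source. Correlations of same-numbered deviations ran from -0.31 to 0.39 over 25 pairs in 6 comparisons, which share libraries, and in 5 of the 25 the best correlation was with the same number. In KI_Con vs WT_Con it was so for 3 of 4, with 0.13, 0.21, 0.24 and -0.01. It was so for 1 of 3 in KI_Half vs KI_Con and 1 of 4 in WT_Full vs WT_Half. In KI_Half vs WT_Half it was so for 0 of 6, and in WT_Full vs WT_Con and WT_Half vs WT_Con for 0 of 4 each. Whether equal numbers mark paired libraries was not tested.

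Without thinning, the mean number of segments with at least 10 reads was 98.25 in WT_Con, 101 in KI_Con, 90.667 in KI_Half and 75.75 in WT_Full. With at least 1 read it was 106 in WT_Con, 106 in KI_Con, 105.57 in WT_Half, 103.67 in KI_Half and 100.25 in WT_Full. With the V rows that have no symbol, thinned numbers were 133.91 in WT_Con, 138.02 in KI_Con, 140.72 in WT_Half, 139.85 in KI_Half and 138.11 in WT_Full, and effective numbers 52.71, 70.139, 70.806, 69.604 and 68.517 in the same order. The summed level of KI_Con was then 2270.3 CPM. Without the leading segment the effective number was 48.062 in WT_Con, 54.022 in KI_Half and 53.068 in WT_Full.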
